A study of Mus musculus with 6 samples.

Results

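The genes described here encode the calcitonin-like receptor, its relative the calcitonin receptor, the receptor activity-modifying proteins (RAMPs) that travel with them, their peptide ligands and a receptor-associated protein. The 10 members, *Calcrl*, *Calcr*, *Ramp1*, *Ramp2*, *Ramp3*, *Adm*, *Adm2*, *Calca*, *Calcb* and *Crcp*, were taken by gene symbol out of the 20405 genes of an array table. Where a gene had several probe sets the rule kept the brightest by its mean over the arrays, but each member had 1 probe set, so no measured value decided which row was used. The members were chosen by symbol, as a gene family around *Calcrl*. *Calcrl* itself was selected on its measured log2 difference between STOSE and M0505 arrays, which was already known to be among the largest, so its change is given as a description with no test. RNA came from 2 mouse cell lines of strain FVB/N, with 3 arrays each. M0505 is a line of ovarian surface epithelial (OSE) cells, used at early passage, and STOSE is the line that arose from it by spontaneous transformation in long-term culture. Both were grown in the same medium, which held fetal calf serum and EGF, and neither carried an introduced gene or received a further treatment. Each line is a single derivation from the same cells, so the comparison is between these 2 lines and not between normal and transformed cells in general.

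As background, the calcitonin-like receptor is a class B G protein-coupled receptor that reaches the cell surface in complex with a RAMP. With RAMP1 it binds calcitonin gene-related peptide (CGRP), and with RAMP2 or RAMP3 it binds adrenomedullin. Both kinds of complex couple mainly to the stimulatory G protein and raise cyclic AMP (cAMP), and they are best known from blood vessels, where they act on vessel tone, vessel growth and barrier function.

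RNA of the receptor and of *Ramp1* was higher in STOSE cells, RNA of *Ramp2* was lower, and the ligand genes differed by less than 2-fold. *Calcrl* went from under the background of the array to a clear signal, a linear fold change of 33.1. *Ramp1* rose 5.64-fold and *Ramp2* was 1.58-fold lower. The other RAMP gene, *Ramp3*, the 4 ligand genes and the calcitonin receptor gene *Calcr* did not pass the test on the deposited scale. With the arrays centred on their medians, all of these but *Calcb* passed the adjusted p, each as higher in STOSE cells by less than 2-fold. Under this centring 81.1% of all genes passed, 62.4% as higher, so these passes are not read as results about the members.

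Values are log2 units of robust multi-array average (RMA) signal, the scale on which a difference of 1 is a 2-fold change. Differences were tested with limma over all 20405 genes with Benjamini-Hochberg adjustment, and a call needed an adjusted p below 0.05 together with at least a 2-fold difference. By this rule 12.5% of all genes were called, 4.9% as higher and 7.59% as lower in STOSE cells. The call counts of every list below stand beside these shares. The 1134 probe sets of olfactory receptor genes, which are presumed off in such cells, had a 95th percentile of 4.74, which serves as the background level below. Pearson's r across genes, which are not independent replicates, was at least 0.997 between arrays of the same line and at most 0.95 between arrays of different lines, and no array stood apart from its line. Centring each array on its median instead of keeping the deposited values raised every log2 fold change by about 0.20 and changed the calls over all genes from 1000 higher and 1548 lower to 1466 higher and 1177 lower.

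The labelled cell type was checked with 10 markers of the ovarian surface epithelium. Of these, 9 had a mean above background in M0505 cells and 9 in STOSE cells, among them the mesothelial gene *Upk3b* (12.25 and 11.91) and the transcription factor gene *Wt1* (11.39 and 10.76). Lower calls in STOSE cells were made for 5 of the 10, with the keratin genes *Krt8* (log2 fold change −4.55, standard error 0.08) and *Krt19* (−5.56, standard error 0.12) among them. The call of *Krt7* (−1.03) was lost with the arrays centred on their medians (−0.83) and without M0505 replicate 2, M0505 replicate 3 or STOSE replicate 1 (−0.985, −0.997 and −0.89).

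The promoters of *Calcrl* and *Ramp1* are shown because these genes, of the members, were higher by more than 2-fold. Each is the RefSeq window of assembly GRCm38.p6 from 250 bases before to 50 bases after the start, written 5′ to 3′ along the gene, and such a window was at hand for 7 of the 10 members. The *Calcrl* window lies on the minus strand at chr2:84425217-84425516 and that of *Ramp1* on the plus strand at chr1:91179572-91179871. The arrays measured RNA and not the promoters, so these letters are a description. Capitals mark matches on either strand to any of 6 short motifs. The core of the cAMP response element was searched as TGACG. The GC box, a promoter element bound by Sp1 and related factors, was searched as GGGCGG. The AP-1 site was searched as TGANTCA. The TATA box was searched as TATAAA. The hypoxia response core was searched in a first form as ACGTG. Its other form was searched as GCGTG.
Calcrl: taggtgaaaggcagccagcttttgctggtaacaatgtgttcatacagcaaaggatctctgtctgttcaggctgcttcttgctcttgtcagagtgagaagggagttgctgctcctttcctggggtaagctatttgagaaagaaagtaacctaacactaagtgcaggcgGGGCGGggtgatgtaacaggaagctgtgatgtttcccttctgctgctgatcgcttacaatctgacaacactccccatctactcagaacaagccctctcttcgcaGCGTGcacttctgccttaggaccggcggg
Ramp1: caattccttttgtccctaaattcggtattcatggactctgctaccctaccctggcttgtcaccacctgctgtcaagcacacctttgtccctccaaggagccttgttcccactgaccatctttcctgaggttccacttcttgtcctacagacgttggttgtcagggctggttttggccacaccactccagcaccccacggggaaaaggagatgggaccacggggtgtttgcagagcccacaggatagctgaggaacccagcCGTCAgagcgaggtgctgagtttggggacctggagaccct
The *Calcrl* window held 1 GC box, a match found in 35.7% of the 32851 windows of this length, and 1 match to the other form of the hypoxia core, found in 32.4%. The *Ramp1* window held 1 TGACG match, read on the opposite strand as CGTCA, against 20.8% of all windows. Neither window matched the AP-1 site, the TATA box or the first form of the hypoxia core, which were found in 7.81%, 13.6% and 19.6% of all windows. They held 7 (*Calcrl*) and 6 (*Ramp1*) CpG dinucleotides, where the median of all windows was 7 and the upper quartile 20. No motif was matched in both windows.

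**Figure D1:**
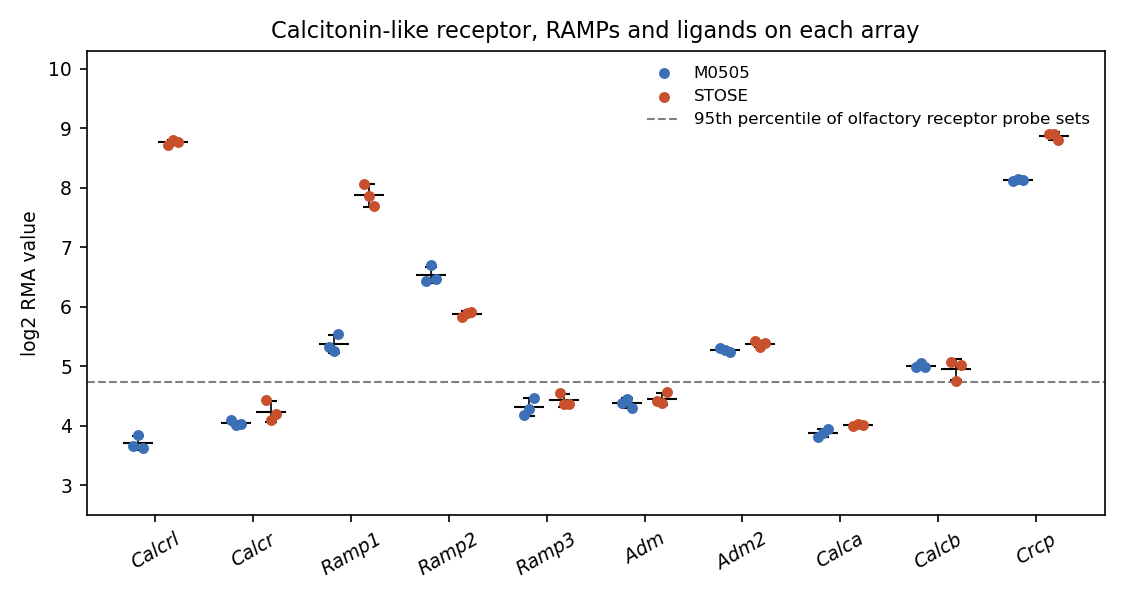
Log2 RMA value (y axis) of each of the 10 members (x axis) on the 3 M0505 arrays (blue points) and the 3 STOSE arrays (red points). Black bars give the mean and SD of a line, and the dashed line is the background level of 4.74. *Calcrl* and *Ramp1* are far apart between the lines, *Crcp* and *Ramp2* are apart by less than 2-fold, and the other members lie near or under the background in both lines.

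*Calcrl*, on chromosome 2 (probe set 10484371), encodes the receptor itself. Its log2 values were 3.65, 3.85 and 3.63 on the M0505 arrays and 8.72, 8.79 and 8.77 on the STOSE arrays. No M0505 array and every STOSE array was above background, and the lines did not overlap. The means were 3.71 ± 0.12 (SD, n = 3) and 8.76 ± 0.04 (SD, n = 3), and the difference of 5.05 had a standard error of 0.07. It ranked 10 of the 20405 genes from the highest log2 fold change. Because the M0505 values lay under background, the fold change depends on how RMA placed signals near background. The spread among the STOSE arrays was smaller than that of *Ramp1*.

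*Calcr*, on chromosome 6 (probe set 10542929), encodes the calcitonin receptor, which binds calcitonin alone and amylin when paired with a RAMP. Its log2 values were 4.09, 4.02 and 4.03 in M0505 cells and 4.43, 4.09 and 4.19 in STOSE cells. All arrays of both lines were under background, and the lines were separated by a difference too small to be told from 0 after adjustment (0.19, 95% interval −0.01 to 0.40, limma adjusted p = 0.0994). It passed the adjusted p when the arrays were centred on their medians (0.39, adjusted p = 0.00326).

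*Ramp1*, on chromosome 1 (probe set 10348537), encodes the partner with which the receptor binds CGRP. Its log2 values were 5.32, 5.26 and 5.55 on the M0505 arrays and 8.06, 7.86 and 7.69 on the STOSE arrays. All 6 arrays were above background, and every STOSE array was higher than every M0505 array. The means were 5.38 ± 0.15 (SD, n = 3) and 7.87 ± 0.19 (SD, n = 3). The difference of 2.49 had a standard error of 0.11 (limma adjusted p = 4.93e-07) and ranked 112 from the highest among all genes, and dropping any single array gave values from 2.40 to 2.59.

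*Ramp2*, on chromosome 11 (probe set 10381298), encodes a partner with which the receptor binds adrenomedullin. Its log2 values were 6.44, 6.69 and 6.47 in M0505 cells and 5.83, 5.90 and 5.91 in STOSE cells. All arrays were above background, and every STOSE array was lower than every M0505 array. The difference of −0.66 (standard error 0.08, 95% interval −0.84 to −0.47) passed the adjusted p (0.000148, limma) but was under 2-fold, so *Ramp2* was not called. With the arrays centred on their medians the difference was −0.46.

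*Ramp3*, on chromosome 11 (probe set 10374197), encodes the other adrenomedullin partner, which also steers the receptor after it is taken up. Its log2 values were 4.18, 4.27 and 4.47 in M0505 cells and 4.56, 4.37 and 4.37 in STOSE cells. All were under background, the lines overlapped, and the difference of 0.12 (95% interval −0.09 to 0.33, limma adjusted p = 0.291) was not past the threshold, although it was with the arrays centred on their medians (0.32, adjusted p = 0.0123).

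The RAMP genes thus differed unequally between the lines. Within an array, the log2 value of *Ramp1* minus that of *Ramp2* was −1.12, −1.43 and −0.92 on the M0505 arrays and 2.24, 1.96 and 1.78 on the STOSE arrays. Only the change of this difference can be read, since 2 probe sets do not share a scale, and it was 3.15, an 8.88-fold change of the ratio. The lines did not overlap, and the two-sided exact permutation test gave p = 0.1, the smallest that 3 against 3 arrays allow. Both followed from the values above, since *Ramp1* was higher and *Ramp2* lower on every STOSE array. The pair was taken because both genes differed between the lines, so nothing further is read from this p. *Ramp1* minus *Ramp3* changed by 2.37 in the same way, from 1.07 ± 0.07 (SD, n = 3) to 3.44 ± 0.11 (SD, n = 3), with the same exact p = 0.1. Since *Ramp3* was under background on all arrays, this change mostly restates the rise of *Ramp1*.

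The adrenomedullin genes did not pass the test on the deposited scale. *Adm*, on chromosome 7 (probe set 10556297), encodes a vasodilator peptide that many cells secrete under low oxygen, and had log2 values of 4.38, 4.46 and 4.29 in M0505 cells and 4.42, 4.37 and 4.56 in STOSE cells. All 6 arrays were under background and the lines overlapped (difference 0.08, 95% interval −0.09 to 0.25, limma adjusted p = 0.412), and the sign of the difference turned under a further quantile normalization (−0.01). Under median centring of the arrays it was 0.28 and past the threshold (adjusted p = 0.00937). *Adm2*, on chromosome 15, encodes the related peptide intermedin. It had log2 values of 5.31, 5.28 and 5.24 in M0505 cells and 5.42, 5.32 and 5.39 in STOSE cells. These lay above background in both lines and did not overlap, but the difference of 0.10 was not past the threshold (95% interval −0.03 to 0.23, limma adjusted p = 0.172). It passed the adjusted p with the arrays centred (0.30, adjusted p = 0.00157).

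The CGRP genes likewise did not pass the test on the deposited scale. *Calca*, on chromosome 7, encodes both calcitonin and the alpha form of CGRP through alternative splicing, which 1 probe set does not separate. Its log2 values of 3.81, 3.88 and 3.94 in M0505 cells and 4.00, 4.04 and 4.02 in STOSE cells were all under background. The lines did not overlap, and the difference of 0.14 did not pass the adjusted threshold (95% interval 0.01 to 0.28, limma adjusted p = 0.0692), but did so with the arrays centred on their medians (0.34, adjusted p = 0.00132). *Calcb*, on the same chromosome, encodes the beta form of CGRP. Its log2 values were 4.98, 5.05 and 4.99 in M0505 cells and 5.07, 4.75 and 5.02 in STOSE cells. Every array was above background, STOSE replicate 2 only narrowly. The lines overlapped, and the difference of −0.06 (95% interval −0.27 to 0.14, limma adjusted p = 0.568) changed sign to 0.04 without STOSE replicate 2 and to 0.14 with the arrays centred on their medians.

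*Crcp*, on chromosome 5 (probe set 10526113), encodes a small protein described as a component of the CGRP receptor and also as a subunit of RNA polymerase III. It was bright in both lines, at log2 values of 8.10, 8.14 and 8.13 in M0505 cells and 8.91, 8.90 and 8.80 in STOSE cells. Every STOSE array was higher than every M0505 array. The difference of 0.74 (standard error 0.06, 95% interval 0.61 to 0.88) passed the adjusted p (1.09e-05, limma) and was under 2-fold, at 1.67-fold, so *Crcp* was not called.

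Over the 10 members, limma called 2 higher and 0 lower, beside 4.9% and 7.59% of all genes, and since *Calcrl* was chosen for its change nothing is read from this count. At an unadjusted p under 0.05, limma had 4 higher and 1 lower. No share of all genes was computed at an unadjusted p, here or for the lists below. Unadjusted counts are therefore not read as results about the members or lists. Without the fold threshold 4 of the 10 passed (3 higher and 1 lower), beside 56.5% of all genes (31.6% higher and 24.8% lower). A further quantile normalization left these counts at 3 and 1, beside 55.1% of all genes (31.5% higher and 23.6% lower). Centring the arrays on their medians raised them to 8 and 1, so that 9 of the 10 passed, beside 81.1% of all genes (62.4% higher and 18.6% lower). The arrays of the lines did not overlap for 7 of the 10, beside 64.6% of all genes. The median log2 fold change of the members was 0.13, and that of all genes was 0.08.

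**Figure D2:**
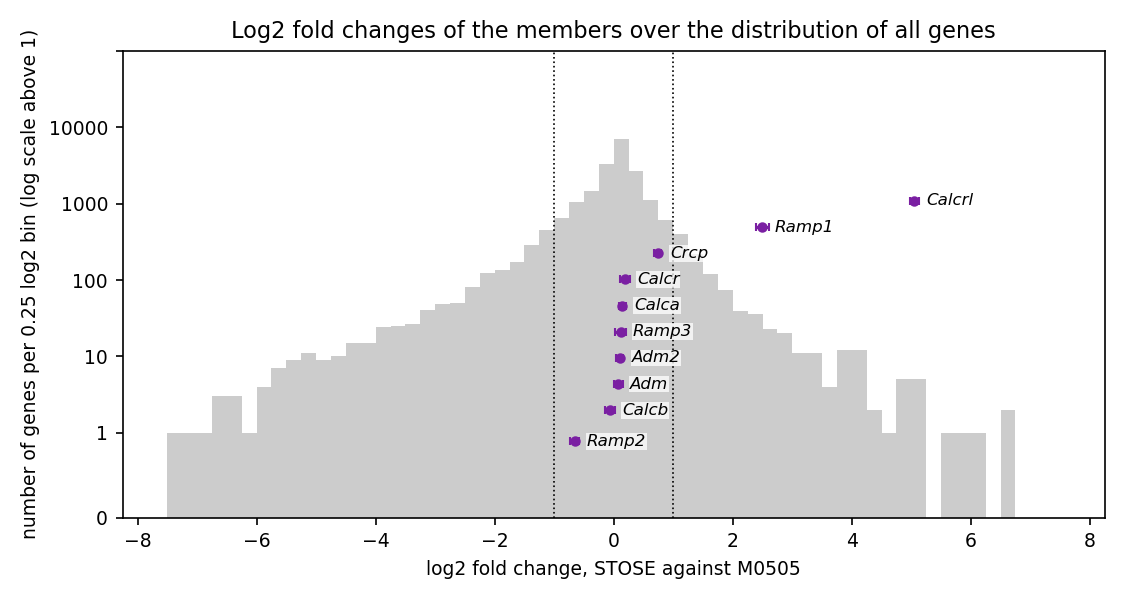
Distribution of the log2 fold change, STOSE against M0505 (x axis), over all 20405 genes in bins of 0.25 (grey bars, y axis on a log scale above 1), with the 10 members as purple points with their standard error. The height of a point has no meaning, and the dotted lines mark a 2-fold change. *Calcrl* at 5.05 and *Ramp1* at 2.49 lie in the upper tail, and the other 8 members lie between the dotted lines.

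The genes beside *Calcrl* did not all move with it. In the order of RefSeq genes, in which 97.4% of the genes of the table could be placed, the 3 measured genes on each side were *Itgav*, *Fam171b* and *Zswim2*, then *Tfpi*, *Ctnnd1* and *2700094K13Rik*. The next gene, *Tfpi*, encodes tissue factor pathway inhibitor, which restrains the start of blood clotting. It rose from 4.48 ± 0.17 (SD, n = 3) to 8.21 ± 0.03, which is 13.3-fold (3.73 on the log2 scale with a standard error of 0.09, limma adjusted p = 1.46e-08), and like *Calcrl* its M0505 mean lay under background. *2700094K13Rik* was higher by 1.17 (standard error 0.05, adjusted p = 5.97e-07), and *Fam171b* was lower by 4.07-fold (−2.02, standard error 0.14, adjusted p = 6.25e-06). *Ctnnd1*, which encodes p120-catenin and lies beyond *Tfpi*, differed by −0.05 (adjusted p = 0.448), and *Itgav*, the integrin alpha V gene, by −0.29 (adjusted p = 0.00177). *Zswim2*, the gene on the other side of *Calcrl*, was at 3.30 and 3.46, under background in both lines.

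The neighbours of *Ramp1* and *Ramp2* were examined after their values had been seen. Beside *Ramp1*, *Lrrfip1* (higher by 1.78, standard error 0.09, limma adjusted p = 7.49e-07) and *Scly* (1.07, standard error 0.07, adjusted p = 4.12e-06) were called higher, and *Ube2f*, the measured gene next to it, was not (0.14, adjusted p = 0.108). Beside *Ramp2*, *Ezh1*, a histone methyltransferase gene, was called lower (−1.07, standard error 0.06, adjusted p = 2.52e-06), a call that fell under 2-fold at −0.87 with the arrays centred on their medians. *Vps25*, the measured gene on the other side of *Ramp2*, was lower by less than 2-fold (−0.37, adjusted p = 0.00173).

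**Figure D3:**
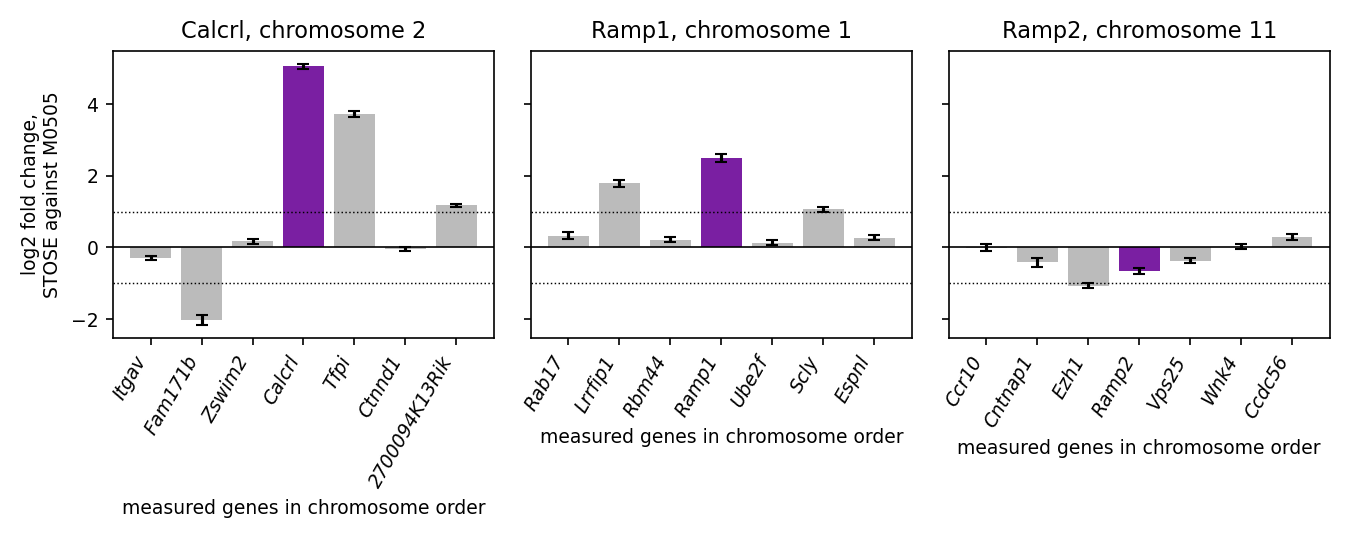
Log2 fold change, STOSE against M0505 (y axis), of *Calcrl*, *Ramp1* and *Ramp2* (purple bars) and of the 3 measured genes on each side in chromosome order (grey bars), with standard errors. Dotted lines mark a 2-fold change. *Tfpi*, next to *Calcrl*, rose by 3.73, while *Zswim2* on the other side and *Ctnnd1* beyond *Tfpi* differed by less than 0.2.

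The genes whose pattern over the 6 arrays was most like that of *Calcrl*, by the root mean square difference after each gene was centred on its own mean, were *Ereg* (difference 0.07 log2 units), *Igfbp4* (0.10), *Mgll* (0.13), *Mmp8* (0.14) and *Aif1l* (0.14). *Ereg* encodes the growth factor epiregulin, *Igfbp4* an insulin-like growth factor binding protein and *Mmp8* a collagenase. Since the 6 arrays fall into only 2 lines, this likeness is mostly that of the fold change, which lay between 4.79 and 5.24 on the log2 scale for these 5 genes.

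Downstream of the receptor lie the 20 listed genes of the stimulatory G protein, adenylyl cyclases, protein kinase A, cAMP-activated exchange factors and CREB factors. They had 2 higher and 2 lower calls, beside 4.9% and 7.59% of all genes. Their median log2 fold change of 0.08 equalled that of all genes to this precision. *Gnas*, the stimulatory G protein subunit, was bright in both lines and differed by −0.12 (limma adjusted p = 0.0885). Of the cyclases, *Adcy7* rose from 6.97 ± 0.11 (SD, n = 3) to 8.19 ± 0.01 (log2 fold change 1.23, standard error 0.07), *Adcy5* fell to 5.07 ± 0.32 (−1.93, standard error 0.18), and *Adcy9* fell by 1.02 (standard error 0.09). The call of *Adcy9* was lost without STOSE replicate 3 (−0.93) and with both other scalings (−0.82 and −0.86). *Rapgef3*, which encodes the cAMP-activated exchange factor EPAC1, rose by 1.37 (standard error 0.11, adjusted p = 1.07e-05), and by 0.92, under 2-fold, with the mean of its probe sets. *Creb1* differed by 0.40 (adjusted p = 0.00103) and the catalytic subunit gene *Prkaca* by 0.37 (adjusted p = 0.000877), both under 2-fold.

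The phosphodiesterases that break down cAMP moved in both directions, with 1 of 10 called higher and 2 lower (median 0.10). The shares of all genes were 4.9% and 7.59%. *Pde3b* fell from 7.46 ± 0.18 (SD, n = 3) to 3.36 ± 0.30, 17.1-fold lower (−4.10 on the log2 scale with a standard error of 0.15, limma adjusted p = 1.89e-07), and *Pde7b* fell by 2.04 (standard error 0.15). The STOSE means of both lay under background. *Pde8a* rose from 5.80 ± 0.05 to 8.59 ± 0.20, a 6.93-fold rise (SE 0.10 in log2 units, adjusted p = 1.44e-07).

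Of the 8 genes of receptor desensitization and trafficking, limma called 1 higher and 0 lower (6 and 0 at an unadjusted p under 0.05), and the median of 0.65 was above the 0.08 of all genes. Without the fold threshold 6 of the 8 passed, all of them higher in STOSE cells, beside 56.5% of all genes in either direction and 31.6% as higher. The called gene was *Grk5*, a G protein-coupled receptor kinase, at a log2 fold change of 1.62 (standard error 0.09, limma adjusted p = 2.10e-06). The arrestin genes *Arrb2* (0.94, standard error 0.06) and *Arrb1* (0.71, standard error 0.06) were higher by less than 2-fold. *Slc9a3r1*, whose product NHERF1 binds RAMP3, differed by −0.01.

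For peptide processing, binding and clearance, 12 of 13 genes had a row in the table. Of these, 1 was called higher and 2 lower, beside 4.9% and 7.59% of all genes. Their median log2 fold change was −0.19, and 0.01 with the arrays centred on their medians. The carboxypeptidase gene *Cpe* fell by 1.41 on the log2 scale (standard error 0.07, limma adjusted p = 1.21e-06). *Cxcr7*, also named *Ackr3*, a scavenger receptor for chemokines and adrenomedullin, rose from 4.22 ± 0.12 (SD, n = 3), under background, to 5.31 ± 0.10 (1.10, standard error 0.08, adjusted p = 8.78e-06). *Pam*, the enzyme that amidates adrenomedullin and CGRP, was at 9.06 and 9.20 and did not pass the test (0.14, adjusted p = 0.175).

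Among the other 13 class B hormone receptors, limma called 1 higher and 0 lower (7 and 0 at an unadjusted p under 0.05, median 0.18). *Adcyap1r1*, the receptor for pituitary adenylate cyclase-activating peptide, had log2 values of 5.30 ± 0.08 (SD, n = 3) in M0505 cells and 7.63 ± 0.19 in STOSE cells, a 5.01-fold rise (2.33 in log2 units with a standard error of 0.10, limma adjusted p = 3.96e-07). The 13 other ligands of this receptor family, with amylin (*Iapp*) among them, held 0 calls in either direction under limma, and 0 under the methods' t-test, although 5 passed limma's adjusted p and 6 an unadjusted p under 0.05, all of them higher by less than 2-fold. At the adjusted p 56.5% of all genes passed, 31.6% as higher. Under median centring 12 of the 13 passed, beside 81.1% of all genes. The largest was *Pthlh*, which encodes parathyroid hormone-related protein (0.89, standard error 0.13, adjusted p = 0.000403), and 8 of the 13 were at or under background in both lines.

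Of 12 genes that cAMP quickly raises through CREB in many cells, 2 were called higher and 1 lower (median 0.12). The shares of all genes were 4.9% and 7.59%. Without the fold threshold 8 of the 12 passed, 5 higher and 3 lower, beside 56.5% of all genes (31.6% higher and 24.8% lower). *Atf3* rose by 1.90 (standard error 0.11, limma adjusted p = 1.88e-06) and *Egr1* by 1.17 (standard error 0.13, adjusted p = 7.29e-05), and *Fos* fell by 1.15 (standard error 0.18, adjusted p = 0.00059). The call of *Fos* was lost without STOSE replicate 1 (−0.93) and with the arrays centred on their medians (−0.95). *Nr4a1* differed by 0.12 (limma adjusted p = 0.617), with an SD of 0.44 on the M0505 arrays. Other uncalled genes of the list went both ways, among them *Junb* (0.76, adjusted p = 0.000395) and *Crem* (−0.83, adjusted p = 0.00063).

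Since *Adm* is a classical target of hypoxia-inducible factors, 15 other such targets were read beside it. They had 3 higher and 3 lower calls (median 0.15), beside 4.9% and 7.59% of all genes. Without the fold threshold 13 of the 15 passed, 7 higher and 6 lower, beside 56.5% of all genes (31.6% higher and 24.8% lower). *Egln3* (log2 fold change 2.38, standard error 0.11), *Slc2a1* (1.27, standard error 0.08) and *Hk2* (1.26, standard error 0.17) were higher. *Bnip3* fell from 8.78 ± 0.22 (SD, n = 3) to 4.19 ± 0.12, and *Pdk1* was lower by 2.01 (standard error 0.19). *Ddit4* was lower by 2.22-fold, a call lost with the arrays centred on their medians (−0.95).

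**Figure D4:**
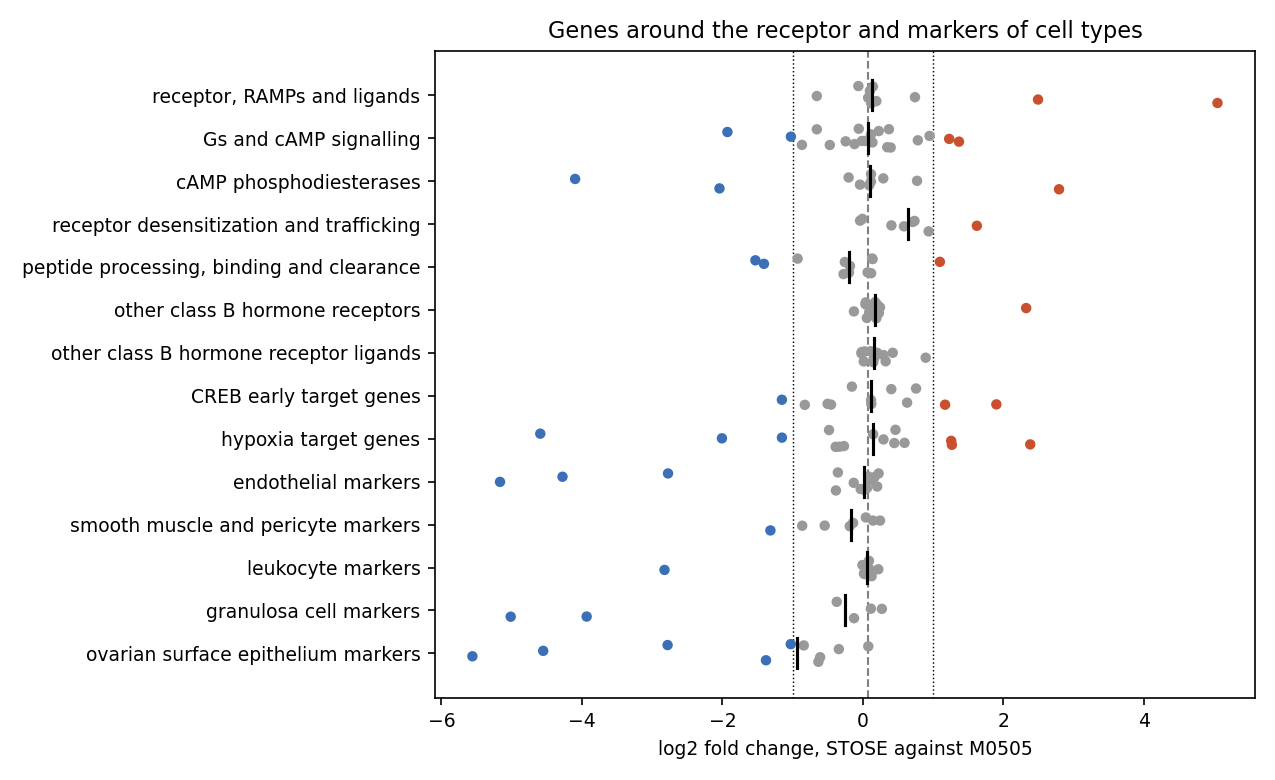
Log2 fold change, STOSE against M0505 (x axis), of every measured gene in 14 lists (rows; vertical jitter only separates points). Red points were called higher, blue points lower and grey points neither, black ticks are list medians, the dashed line is the median of all genes (0.08) and dotted lines mark a 2-fold change. The 3 blue endothelial points are *Kdr*, *Flt4* and *Esam*, and the median of the 15 endothelial markers is 0.01.

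Markers of other cell types were read because *Calcrl* is best known from endothelium, and because fewer cells of a type and less RNA per cell cannot be told apart in bulk RNA. Of 15 endothelial markers, limma called 0 higher (2 at an unadjusted p under 0.05) and 3 lower, and their summed level, as log2 of the sum of linear signals, was 10.87 to 11.13 in M0505 cells and 8.83 to 8.94 in STOSE cells. The VEGF receptor gene *Kdr* fell from 9.58 ± 0.08 (SD, n = 3) to 4.41 ± 0.29, *Flt4* from 9.28 ± 0.29 to 5.01 ± 0.14 and *Esam* from 8.12 ± 0.04 to 5.35 ± 0.10. Of the 15, 10 had a mean above background in M0505 cells and 9 in STOSE cells. Among these were *Egfl7* (6.31 in M0505 and 5.93 in STOSE cells) and *Cldn5* (5.63 and 5.71). *Pecam1* (4.69 and 4.33) and *Emcn* (2.99 and 3.05) were under background in both lines. *Cdh5* (4.81 and 5.01) and *Tek* (4.76 and 4.78) were close to it. The median log2 fold change of the 15 was 0.01, and 8 of them were higher and 7 lower in sign, so the list as a whole did not shift with its summed level. At the adjusted p alone 2 of the 15 were higher and 5 lower, beside 31.6% and 24.8% of all genes, and with the arrays centred on their medians 8 and 5, beside 62.4% and 18.6%. The part of endothelial RNA in the results for the members was not tested.

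The other marker lists had 0 higher calls under limma and under the methods' t-test, and at an unadjusted p under 0.05 there were 2 higher genes among the smooth muscle and pericyte markers, 1 among the leukocyte markers, 1 among the granulosa cell markers and 0 among the surface epithelium markers. The 8 smooth muscle and pericyte markers had 1 lower call, *Cnn1* (log2 fold change −1.32, standard error 0.14), and a summed level of 8.69 to 8.70 in M0505 and 8.11 to 8.27 in STOSE cells. The 8 leukocyte markers had 1 lower call, the lysosomal gene *Cd68* (−2.82, standard error 0.17), with *Ptprc*, which encodes the common leukocyte antigen CD45, at 3.79 and 3.81, under background in both lines, and a summed level of 9.75 to 10.12 against 7.98 to 8.23. The means of 2 of the 8, *Cd68* and *Cd3e* (5.09 in M0505 and 5.31 in STOSE cells), were above background in each line. The 6 granulosa cell markers had 2 lower calls, *Amhr2* (−5.01, standard error 0.23) and *Inha* (−3.93, standard error 0.11), and a summed level of 11.90 to 12.09 against 8.13 to 8.34, with *Fshr* and *Cyp19a1* under background in both lines. The brightest of the list in M0505 cells was *Amhr2* (11.63), which the authors describe as expressed in ovarian epithelium and fimbria too, so it does not single out granulosa cells. *Foxl2* was above background in both lines (6.76 in M0505 and 6.39 in STOSE cells). The mean of *Amh* was above background only in STOSE cells (4.68 and 4.95). The summed level of the ovarian surface epithelium markers was 14.44 to 14.51 in M0505 and 13.32 to 13.45 in STOSE cells, also lower where *Calcrl* and *Ramp1* were higher, and the part of this change in the results for the members was not tested.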

How the data were processed

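The authors hybridized total RNA of M0505 and STOSE cells to Affymetrix arrays (the Mouse Gene 1.0 ST design) and deposited 1 table of log2 values per probe set, made by robust multi-array average (RMA) normalization, in which background correction and quantile normalization precede the summary of the probes. The submitters' processing notes name Affymetrix Expression Console. The software version, annotation release and genome build are not given in the sources used here. A further 4 columns hold the authors' averages and fold changes and were not used. Of 28944 probe sets, 23530 had a gene symbol, and the brightest per gene gave 20405 genes. Arrays were matched to samples by column name and replicate number. The sample labels call them biological replicates without naming separate cultures, so p-values measure the spread between these samples. With 3 arrays a line, the number of arrays sets the precision.

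The lines were compared with limma 3.58.1 in R 4.3.3 (lmFit and eBayes, no covariate, prior degrees of freedom 4.07, Benjamini-Hochberg adjustment over all genes). Intervals are 95% intervals from this fit, without adjustment. On simulated data for this comparison, with 200 of 20405 genes changed, 99.5% were recovered with 0 false calls. The changes put in were all larger than the 2-fold threshold, and no shift between the lines was simulated. Recovery of changes near 2-fold was therefore not examined. Named genes are all members, up to 4 called genes per list by size of change, the 5 genes most like *Calcrl* and its 3 measured neighbours on each side. Uncalled genes of a list were named beside them after their values were seen. The values of 1 called gene of the lists are not reported here. The members and lists were chosen with earlier results of these data known. The olfactory receptor background follows an earlier analysis of the same table. Alternatives were a further quantile normalization, centring of arrays on their medians, filters on dim genes, the mean of probe sets or each probe set alone, the methods' t-test, limma with trend and robust estimation, no fold threshold, the replicate number as a block, and each array left out in turn. Promoter sequences and gene order are from RefSeq of GRCm38.p6, and gene order was matched by symbol or synonym.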

Additional observations from a re-analysis of the deposited data

How the results depend on the processing

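*Ramp1* kept its sign and call under every alternative run, with log2 fold changes of 2.40 to 2.69. The log2 fold change of *Calcrl*, a description since the gene was chosen for it on these arrays, was 5.01 to 5.25. Leaving out the dimmest 50% of genes removed *Calcrl*, so that 1 member was called higher, and left 1 neighbour of *Calcrl* called higher in place of 2. At the adjusted p alone, without a fold threshold, 1 member was called lower (*Ramp2*), 45 genes of the lists were called higher and 44 lower, in place of 11 and 22, and 2 neighbours of *Calcrl* were lower. Of all genes, 31.6% were higher and 24.8% lower at this threshold. The adjusted p alone was combined with each other scaling after the data were seen. With the arrays centred on their medians it gave 8 members higher and 1 lower, 87 list genes higher and 35 lower, and 4 neighbours of *Calcrl* higher, and with a further quantile normalization it gave 1 member lower, 39 list genes higher and 42 lower, and 2 neighbours lower. Of all genes, 62.4% were higher and 18.6% lower with centring, and 31.5% and 23.6% with the further quantile normalization. The methods' t-test at its unadjusted threshold called 5 members higher and 1 lower, 41 list genes higher and 44 lower, and 3 neighbours of *Calcrl* lower. The share of all genes at this t-test threshold was not computed, so nothing is read from these counts. With Benjamini-Hochberg adjustment and the 2-fold threshold the same t-test made the counts of limma. Signs turned only for uncalled members, *Adm* (−0.0129 with a further quantile normalization) and *Calcb* (0.14 with the arrays centred on their medians, and −0.1254 to 0.0355 with each array left out, the highest without STOSE replicate 2).

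The replicate numbers were not taken as pairs. Deviations from the line means correlated at 0.26, 0.04 and 0.25 for same-numbered arrays, and not every array correlated best with its own number. With the replicate number as a block, 2 members were called higher and 0 lower, *Ramp1* stayed at 2.49 and *Ramp2* at −0.66. The array signal limits what can be said of *Calcr*, *Ramp3*, *Adm* and *Calca*, which lay under background on all arrays, and their absence is not shown.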
